A study of Homo sapiens with 2 samples.

Results

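SOX2, SOX4, SOX5, SOX6, SOX9, SOX11, SOX12, PAX7, MSX1 and OTX2, 10 genes of 33538 counted, encode transcription factors of the SOX family and of the neural plate, its border and the neural crest. They were listed by name and followed in the Ewing sarcoma cell lines CHLA9 and TC71, with 1 droplet single-cell RNA library of each. CHLA9 was grown in IMDM with 20% serum plus insulin, transferrin and selenite, and TC71 in RPMI with 10% serum, without further treatment. The CHLA9 library was sequenced on a HiSeq and again on a NovaSeq, and the TC71 library on a HiSeq, so line, medium and sequencing cannot be told apart. The study asked how developmental gene programs appear in single Ewing sarcoma cells.

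A cell was kept with 5000 or more unique molecular identifiers (UMIs, 1 for each captured transcript), 2000 or more genes and no more than 15% of UMIs from mitochondrial genes. They numbered 4524 of 5077 barcodes in CHLA9 and 1729 of 8468 in TC71, with medians of 34656 and 33370 UMIs per cell and 174975302 and 58355173 UMIs in all. All 9 Ewing sarcoma markers checked, among them CD99 and NR0B1, had at least 1 UMI in 1000000 (CPM) in both lines, while defining markers of blood, endothelium, muscle and Schwann cells stayed under 1 CPM. Of the neuronal markers SYT1 reached 133 CPM in CHLA9 against 222 CPM in TC71, while SNAP25 and RBFOX3 stayed under 1 CPM, and of the epithelial ones EPCAM reached 1.25 CPM in TC71. Fibroblast markers summed to 278 CPM in CHLA9 against 14.4 CPM in TC71, with COL1A2 at 203 and 0.0343 CPM, and their part in the differences below was not tested. Of 16 barcodes found in both libraries 3 were kept in each, and leaving out the shared ones moved no ratio of a factor beyond its interval. Cells of 1 library are not replicates of a line, so no test between the lines was possible, and every interval is a 95% interval that covers counting error only.

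SOX proteins bind DNA through a shared HMG box and fall into groups: SOX2 is a SOXB1 factor of pluripotent and neural progenitor cells, SOX4, SOX11 and SOX12 form the SOXC group of immature neural and mesenchymal cells, SOX5 and SOX6 are SOXD factors without a transactivation domain of their own, and SOX9 is the SOXE factor of cartilage and early neural crest. PAX7 and MSX1 act at the neural plate border, from which the neural crest leaves to form peripheral nerve, pigment cells and much of the facial skeleton, and OTX2 patterns the forebrain and midbrain. Ewing sarcoma carries the fusion factor EWSR1-FLI1, which binds GGAA repeats, and neural crest and mesenchymal stem cells have both been proposed as its origin.

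The 250 bases before the transcription start are shown for the 3 factors with an entry in the RefSeq promoter table (GRCh38.p14) whose levels were farthest apart between the lines, OTX2, MSX1 and PAX7, and for the one whose levels were closest, SOX6. The windows are chr14:56810480-56810729 on the minus strand for OTX2, chr4:4859415-4859664 on the plus strand for MSX1, chr1:18630596-18630845 on the plus strand for PAX7 and chr11:16738478-16738727 on the minus strand for SOX6, each at the start farthest upstream in the table. Each sequence runs 5′ to 3′ along its gene, and capitals mark a match to 1 of the motifs given after it.
OTX2: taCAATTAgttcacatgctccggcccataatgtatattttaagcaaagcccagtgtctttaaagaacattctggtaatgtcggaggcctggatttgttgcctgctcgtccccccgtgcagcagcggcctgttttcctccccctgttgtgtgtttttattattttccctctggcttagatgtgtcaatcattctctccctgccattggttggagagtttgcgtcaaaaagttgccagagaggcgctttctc
MSX1: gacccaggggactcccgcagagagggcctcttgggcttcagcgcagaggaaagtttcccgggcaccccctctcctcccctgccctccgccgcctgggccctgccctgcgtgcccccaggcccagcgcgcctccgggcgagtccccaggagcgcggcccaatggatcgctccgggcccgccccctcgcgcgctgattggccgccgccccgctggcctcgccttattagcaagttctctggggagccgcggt
PAX7: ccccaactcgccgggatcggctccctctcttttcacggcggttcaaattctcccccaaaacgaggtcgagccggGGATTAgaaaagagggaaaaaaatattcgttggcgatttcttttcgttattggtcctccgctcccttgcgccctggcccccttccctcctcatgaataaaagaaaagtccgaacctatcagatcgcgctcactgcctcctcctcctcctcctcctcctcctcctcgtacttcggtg
SOX6: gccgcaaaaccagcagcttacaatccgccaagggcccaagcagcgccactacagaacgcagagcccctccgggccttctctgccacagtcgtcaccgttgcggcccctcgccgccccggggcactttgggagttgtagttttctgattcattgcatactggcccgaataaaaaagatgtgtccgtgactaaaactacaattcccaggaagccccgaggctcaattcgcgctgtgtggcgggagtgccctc

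The motifs, read on both strands and counted one by one even where matches overlap, were GGAAGGAA for a GGAA repeat, ACAATG for SOX factors, TAATCC for OTX factors, TAATTG for MSX and other homeobox factors and TATAAA for a TATA box. OTX2 held TAATTG, as its complement, 248 bases before its start, and PAX7 held TAATCC, as its complement, 176 bases before its start. The windows of MSX1 and SOX6 held none of them. Over all 35116 promoter windows of this length, 3.06% held the GGAA repeat, 9.29% the SOX, 5.62% the OTX and 6.70% the MSX motif, and 10.7% held the TATA motif. The table matched 8 of the 10 factors, not SOX9 or SOX11, with 13 starts. Among these starts 1 held the GGAA repeat, the most downstream of 5 starts of SOX6, at 28 bases, while 3 held the SOX motif (at SOX5 and SOX6), 2 the OTX motif (PAX7 and SOX6), 4 the MSX motif (OTX2 and SOX6) and 3 the TATA motif (SOX6). The window of MSX1 was the richest in G and C of those shown, at 74.0%, against 47.2% for OTX2, 54.8% for PAX7, 58.8% for SOX6 and a median of 58.0% over all windows. A match describes the letters only, and binding was not measured.

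Most of the factors were higher in CHLA9. Of 13552 genes with at least 1 CPM in a line, 19.8% were at least 2-fold higher in CHLA9 and 13.9% in TC71, and of the 9 factors among them 7 were 2-fold higher in CHLA9 and 0 in TC71. At 4-fold the shares of all genes were 6.94% and 7.93%, and the factors were 5 and 0. SOX9 and OTX2 passed the minimum only through CHLA9, so they had to differ. Over the 7516 genes with at least 10 CPM in both lines, 10.4% were at least 2-fold higher in CHLA9 and 4.58% in TC71. Of the 7 factors among these, SOX4, SOX11, SOX12, PAX7 and MSX1 were higher in CHLA9, SOX2 and SOX6 lay within 2-fold, and 0 were higher in TC71. The median log2 ratio of CHLA9 over TC71 was 0.20 over the 13552 genes and 0.16 over the 7516, so a small part of each ratio is shared by most genes. With that shift of 0.16 removed, SOX11 and PAX7 fell just under 4-fold and 3 factors were past it, and in G2M cells alone the number was 3 as well.

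**Figure D1:**
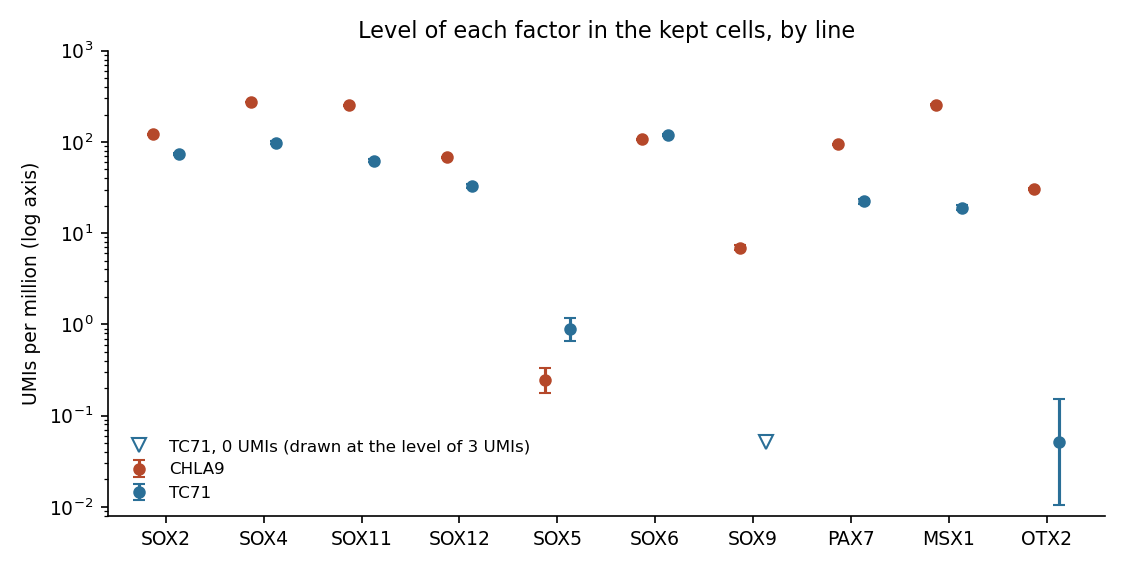
Level of each of the 10 factors in CHLA9 and TC71, in CPM on a log axis, from the summed UMIs of the kept cells; bars are exact 95% Poisson intervals, often smaller than the points, and the open triangle marks SOX9 in TC71, with 0 UMIs, at the level of 3 UMIs. The points of MSX1, SOX9 and OTX2 lie farthest apart, and SOX6 and SOX5 are the factors whose TC71 point is the higher one.

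Each captured transcript gives 1 UMI at its 3′ end whatever its length, so CPM values of different genes can be set side by side, with unequal capture left as a limit. Gene positions are those of GENCODE 44 on GRCh38. In CHLA9 the order ran from SOX4 through MSX1, SOX11, SOX2, SOX6, PAX7, SOX12, OTX2 and SOX9 to SOX5, and among neighbours only the intervals of MSX1 (255 to 260 CPM) and SOX11 (251 to 255) overlapped. In TC71 it ran from SOX6 through SOX4, SOX2, SOX11, SOX12, PAX7, MSX1, SOX5 and OTX2 to SOX9, with overlap between OTX2 and SOX9 only. SOX4, MSX1 and SOX11 were thus above 96.0%, 95.7% and 95.6% of the 13552 genes in CHLA9. In TC71 the corresponding places were 88.1%, 54.8% and 81.0%.

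SOX2 (chr3:181711925-181714436), a factor of neural progenitors and pluripotent cells that EWSR1-FLI1 is known to raise, had 121 CPM in CHLA9 (119 to 122) against 73.4 CPM in TC71 (71.2 to 75.6). CHLA9 was thus 1.65-fold higher (1.59 to 1.70), under the 2-fold mark. After each cell was thinned to 10000 UMIs, SOX2 was detected in 56.5% of 4510 CHLA9 cells (exact Clopper-Pearson interval 55.0 to 58.0) and in 46.6% of 1670 TC71 cells (44.2 to 49.1), and without thinning in 83.0% and 78.6%. In G1 cells alone the log2 ratio of CHLA9 over TC71 was 1.22 in place of 0.72. SOX2-OT, a noncoding transcript that spans SOX2 on the same strand, was not analysed here.

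SOX4 (chr6:21593751-21598619), a SOXC factor of progenitor and many tumour cells, was the highest of the 10 in CHLA9, at 274 CPM (272 to 277), against 98.6 CPM (96.1 to 101.2) in TC71. The ratio was 2.78 (2.71 to 2.86). It was detected in 81.4% of CHLA9 cells (80.2 to 82.5) and 58.6% of TC71 cells (56.2 to 61.0) at 10000 UMIs. SOX11 (chr2:5692384-5701385), the SOXC factor of developing neurons, differed more. It had 253 CPM in CHLA9 (251 to 255) against 62.5 CPM in TC71 (60.5 to 64.6), a ratio of 4.05 (3.91 to 4.19) whose interval spans the 4-fold mark. The shares of cells with a SOX11 UMI were 86.5% (85.5 to 87.5) and 42.9% (40.5 to 45.3).

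SOX12 (chr20:325552-330224), the third SOXC gene, stood lower in both lines, at 68.0 CPM in CHLA9 (66.8 to 69.3) against 33.1 CPM in TC71 (31.7 to 34.6). Its ratio of 2.05 (1.96 to 2.16) also spans the mark used to count it, here 2-fold. The 3 SOXC genes together reached 595 CPM in CHLA9 (592 to 599) against 194 CPM in TC71 (191 to 198), 3.06-fold apart (3.01 to 3.12). Within the group SOX11 was the farthest apart between the lines and SOX12 the closest.

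SOX6 (chr11:15966449-16739591), a SOXD factor of cartilage, oligodendrocyte precursors and neurons that is also known as an EWSR1-FLI1 target, was the only one of the 7 factors with at least 10 CPM in both lines that was higher in TC71. Its levels were 107 CPM in CHLA9 (106 to 109) against 120.2 CPM in TC71 (117 to 123), 1.12-fold higher in TC71 (1.09 to 1.15). It was detected in 60.2% of CHLA9 cells (58.8 to 61.6) and 66.6% of TC71 cells (64.3 to 68.8). This direction was not stable, since in G1 cells alone the log2 ratio of CHLA9 over TC71 was 0.21 in place of -0.16. C11orf58, which overlaps the SOX6 locus on the opposite strand, held 66483 UMIs in CHLA9 and 20109 in TC71, and whether any of its reads were assigned to SOX6 was not tested.

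SOX5 (chr12:23529504-24562544), the other SOXD factor listed, was nearly absent. Its 43 UMIs in CHLA9 and 52 UMIs in TC71 gave 0.246 CPM (0.178 to 0.331) and 0.891 CPM (0.666 to 1.17), 3.63-fold higher in TC71 (2.37 to 5.56). It lay under the minimum of 1 CPM in both lines and entered no count. At 10000 UMIs it was seen in 0.244% of CHLA9 cells and 0.838% of TC71 cells, always as 1 UMI.

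SOX9 (chr17:72121020-72126416), the SOXE factor needed for cartilage and for neural crest cells as they leave the neural tube, was found in CHLA9 only. It had 1214 UMIs in CHLA9, or 6.94 CPM (6.55 to 7.34), and 0 UMIs in TC71. Set against a floor of 3 UMIs over the kept TC71 cells, CHLA9 was 135-fold higher, and the lower end of the exact interval of the ratio was 109.6. After thinning, 6.01% of CHLA9 cells held a SOX9 UMI (5.33 to 6.74) and 0 of 1670 TC71 cells did, which allows a share of cells with a UMI of up to 0.1796% by the floor of 3 and of up to 0.221% by the exact interval. Without thinning the share in CHLA9 was 14.2%, and 83.0% of the thinned cells with SOX9 held a single UMI. Within CHLA9 no cell type lacking SOX9 was at hand, and a separate library cannot show its free RNA, so free RNA in its droplets was not measured apart, and the CHLA9 barcodes under 5000 UMIs held SOX9 at 5.55 CPM (1.51 to 14.2, from 4 UMIs). The SOX9-positive fraction is taken up again after the cell cycle.

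PAX7 (chr1:18630846-18748866), a paired-box factor of the neural plate border and of muscle stem cells and a marker used for Ewing sarcoma, had 94.4 CPM in CHLA9 (92.9 to 95.8) against 22.3 CPM in TC71 (21.1 to 23.6). CHLA9 was 4.22-fold higher, with an interval of 3.99 to 4.47 that reaches just under the 4-fold mark. PAX7 was detected in 56.5% of CHLA9 cells (55.0 to 57.9) and in 18.7% of TC71 cells (16.9 to 20.7). MSX1 (chr4:4859665-4863936), a homeobox factor that responds to BMP signals at the neural plate border and in facial mesenchyme, ranked above 95.7% of genes in CHLA9. It had 257 CPM there (255 to 260) and 19.04 CPM in TC71 (17.9 to 20.2), a ratio of 13.5 (12.7 to 14.3). The cells with an MSX1 UMI made up 76.6% (75.3 to 77.8) and 15.3% (13.6 to 17.1).

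OTX2 (chr14:56799905-56816693), the homeobox factor of the anterior neural plate, had the widest ratio of the factors with UMIs in both lines. It had 5379 UMIs in CHLA9, or 30.7 CPM (29.9 to 31.6), and 3 UMIs in TC71, or 0.0514 CPM (0.0106 to 0.150), each in a different cell. The ratio was 598, with a counting interval of 205 to 2900. At 10000 UMIs it was detected in 22.7% of CHLA9 cells (21.5 to 24.0) and in 0 of 1670 TC71 cells, with the same limits as for SOX9. Without thinning the 3 TC71 cells were 0.174%. OTX2-AS1, transcribed from the opposite strand of the locus, followed with 175 UMIs in CHLA9 and 1 UMI in TC71. Among all genes with at least 1 CPM in a line, 1.46% were detected in CHLA9 only, by at least 1% of thinned cells in one line and at most 0.1% in the other, and 3.1% in TC71 only. The factors gave 2, SOX9 and OTX2, and 0.

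**Figure D2:**
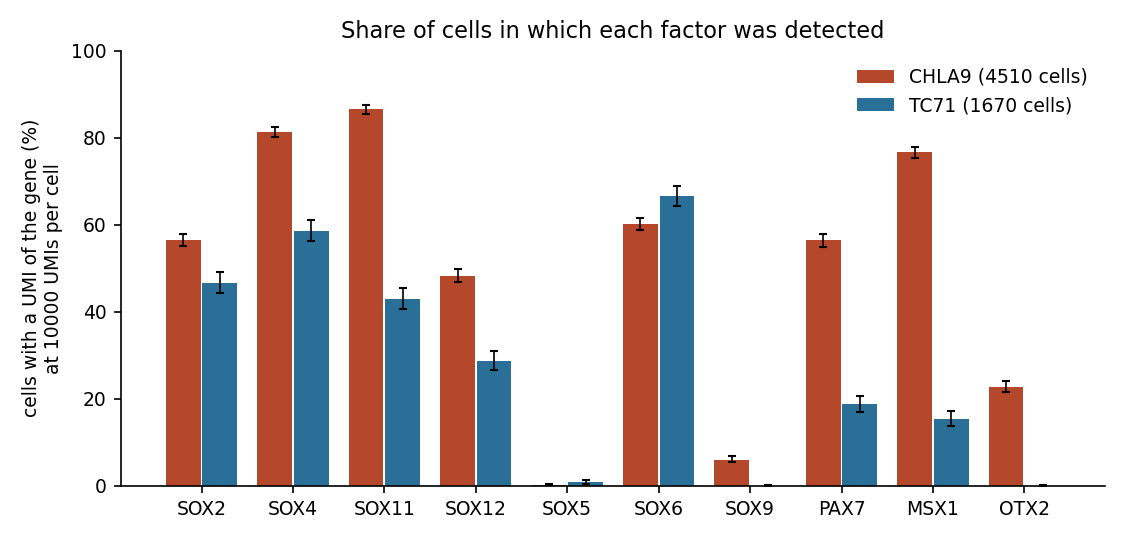
Percent of cells with at least 1 UMI of each factor after thinning to 10000 UMIs per cell, in 4510 CHLA9 cells and 1670 TC71 cells; bars start at 0 and whiskers are exact 95% Clopper-Pearson intervals. SOX6 is detected in a larger share of TC71 cells (66.6% against 60.2%), SOX9 and OTX2 have no TC71 bar, and SOX5 is close to 0 in both lines.

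The SOX transcripts of a line can also be read against each other, which does not depend on how the libraries are scaled. The 19 SOX genes counted summed to 837 CPM in CHLA9 against 412 CPM in TC71, a ratio of 2.03 (2.0 to 2.06). In CHLA9, SOX4 made up 32.8% of these UMIs (32.5 to 33.0) and SOX11 30.2% (30.0 to 30.4). In TC71, SOX6 was the leading SOX transcript, at 29.1% (28.6 to 29.7), against 12.8% in CHLA9 (12.6 to 13.0). SOX4 made up 23.9% there and SOX11 15.2%. The share of SOX12 was 8.12% in CHLA9 (7.98 to 8.27) and 8.04% in TC71 (7.69 to 8.39), values whose intervals overlap. The SOXC group as a whole made up 71.1% of the SOX UMIs in CHLA9 and 47.1% in TC71, and SOX2 14.4% and 17.8%.

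Of the 19 SOX genes 9 had at least 1 CPM in a line, with 5 at least 2-fold higher in CHLA9, 2 in TC71 and a median log2 ratio of 1.04, and 6 of the 9 are factors followed here. Over all genes the shares are 19.8% and 13.9%, and of the other 3 SOX genes 1 was higher in CHLA9 and 2 in TC71. The rest of the family added little in CHLA9 and 1 further gene of note in TC71. SOX18, a SOXF factor of blood and lymph vessel cells, had 1.77 CPM in CHLA9 against 20.2 CPM in TC71, 11.5-fold higher in TC71, and made up 4.91% of the SOX UMIs of TC71. Its endothelial partners in the marker list, PECAM1 and CDH5, stayed at 0.0114 and 0.211 CPM in CHLA9 and at 0 and 0.0685 CPM in TC71. SOX8, a SOXE gene, had 4.49 CPM in CHLA9 against 0.291 CPM in TC71, and SOX10, the SOXE factor of Schwann cells and melanocytes, had 1 UMI in CHLA9 and 0 in TC71. SOX8, SOX9 and SOX10 together thus reached 11.4 CPM in CHLA9 (10.9 to 11.9) against 0.291 CPM in TC71 (0.170 to 0.466).

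**Figure D3:**
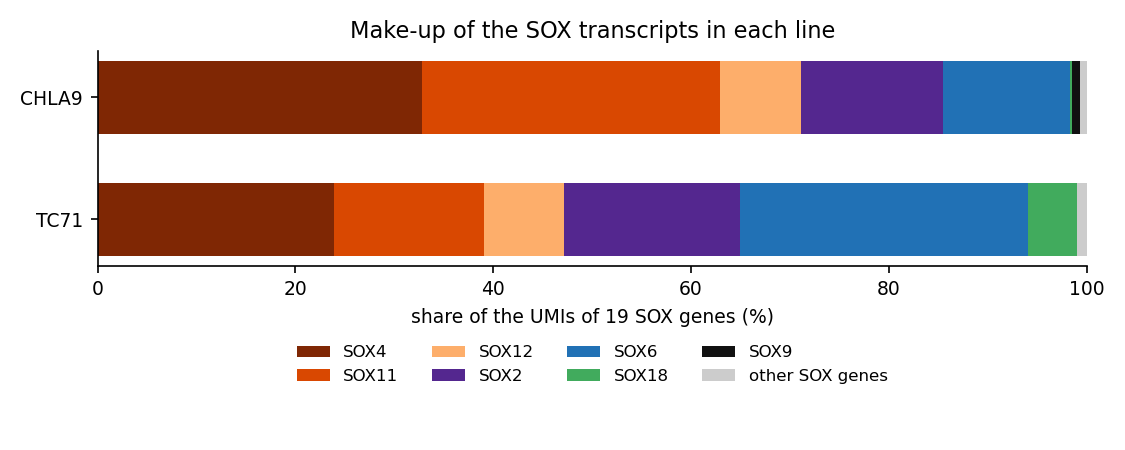
Share of the summed UMIs of 19 SOX genes taken by each gene, in percent, for CHLA9 and TC71. SOX4 and SOX11 take 32.8% and 30.2% in CHLA9, while SOX6 leads in TC71 with 29.1% and SOX18 takes 4.91% there.

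The levels also differed among cells of the same line. Within a line the intervals leave out the spread of a factor across cells, given below, so intervals that are apart are no test. Phases were assigned in each library from S and G2M marker genes, and 22.4%, 38.5% and 39.0% of CHLA9 cells were placed in G1, S and G2M, against 13.1%, 48.2% and 38.7% of TC71 cells. G1 cells were shallower, with a median of 29196 UMIs against 40896 in G2M in CHLA9 and 29047.5 against 37014 in TC71. The median share of MALAT1, a nuclear long noncoding RNA, was 0.860% of UMIs in G1 and 1.94% in G2M in CHLA9, and 0.439% and 0.858% in TC71. Whether depth or nuclear RNA has a part in the phase differences was not tested. Free RNA also enters phase calls, and its part was not tested.

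In CHLA9, SOX2, SOX9, SOX11 and PAX7 were highest in G1. SOX2 had 163 CPM in G1 (158 to 167), but 103 CPM in S cells (100.2 to 105) and 119 CPM in G2M cells (116 to 121). SOX9 had 11.4 CPM in G1 (10.2 to 12.6), 4.81 CPM in S cells (4.29 to 5.37) and 6.92 CPM in G2M cells (6.34 to 7.53), a log2 ratio of 0.72 for G1 over G2M and of -1.24 for S over G1. SOX11 had 319 CPM in G1 (313 to 325), 236 CPM in S cells (232 to 239) and 240.4 CPM in G2M cells (237 to 244), the last pair with overlapping intervals. PAX7 was graded, at 122 CPM in G1 (118 to 126), 99.9 CPM in S cells (97.5 to 102) and 78.3 CPM in G2M cells (76.3 to 80.3). Over the 7516 genes with at least 10 CPM in both lines the log2 ratio of G1 over G2M in CHLA9 had a median of -0.03, with 90% of genes between -0.63 and 0.31, and PAX7 (0.64), SOX2 (0.45) and SOX11 (0.41) lay above that range.

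SOX4, MSX1 and OTX2 were lowest in S in CHLA9, as SOX2, SOX9 and SOX6 also were. Unlike those of SOX2 and SOX9, their G1 intervals did not lie above those of G2M. SOX4 had 314 CPM in G1 (308 to 321), 215 CPM in S cells (211 to 218) and 309 CPM in G2M cells (305 to 312). MSX1 had 261 CPM in G1 (256 to 267), 226 CPM in S cells (223 to 230.0) and 282 CPM in G2M cells (278 to 286). The CHLA9 ranges of the 7516 genes, taken as above, were -0.31 to 0.62 for S over G1 and -0.46 to 0.39 for S over G2M. The log2 ratios of MSX1 (-0.21 and -0.32) lay within them, and those of SOX4 (-0.55 and -0.52) lay below them. OTX2 had 31.5, 25.4 and 35.0 CPM. SOX6 and SOX12 varied least, between 99.99 and 115 CPM and between 64.8 and 71.1 CPM.

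In TC71 some factors followed the course of CHLA9 and others did not. SOX4 again had its lowest level in S, at 85.6 CPM (82.1 to 89.1) against 109.7 in G1 (102 to 118) and 110.3 in G2M (106 to 115). With phases assigned from all genes SOX4 had 93.0 CPM in G1 (87.9 to 98.4), which overlaps S (86.9) and lies under G2M (109, from 105 to 113). MSX1 was also lowest in S, at 16.5 CPM (15.05 to 18.1) against 21.5 in G2M (19.7 to 23.4), while its G1 level of 20.2 overlapped both. For S over G2M the TC71 range of the 7516 genes, taken as for CHLA9, was -0.47 to 0.24. The log2 ratios of MSX1 (-0.38) and SOX4 (-0.37) lay within it. For S over G1 those of MSX1 (-0.29) and SOX4 (-0.36) lay below the range (-0.24 to 0.40). With phases assigned from all genes these 2 ratios shrank to -0.12 and -0.10, so that position was not stable. The range itself was not taken again with those phases. SOX11 ran the other way from CHLA9, with 46.3 CPM in G1 (41.2 to 51.9), 52.2 CPM in S cells (49.5 to 54.9) and 78.3 CPM in G2M cells (74.8 to 81.8). SOX12 was also highest in G2M, at 37.7 CPM against 26.3 in G1, and SOX6 had 126 CPM in G2M against 98.8 in G1. For G1 over G2M the TC71 range of the 7516 genes was -0.61 to 0.26. The log2 ratios of SOX12 (-0.52) and SOX6 (-0.35) lay within it, and that of SOX11 (-0.76) lay below it. SOX2 lay between 70.0 and 75.0 CPM in all 3 phases, with overlapping intervals, though with phases from all genes its G1 (68.3) and S (77.4) intervals were apart. PAX7 had 17.8 CPM in G1 (14.7 to 21.4) and 22.4 in G2M (20.6 to 24.3), intervals that overlap.

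The opposite course of SOX11 was uncommon among genes. At least 1.2-fold higher in G1 than in G2M in CHLA9 and at least 1.2-fold lower in TC71 were 0.506% of the 7516 genes, among them 2 of the 7 factors present, SOX11 and PAX7, and the mirrored pattern held for 0.12% of genes and 0 factors. These limits were chosen after the values were seen. With phases assigned from all genes, 24.8% of TC71 cells fell in G1 and the log2 ratio of G1 over G2M was -0.72 for SOX11 in place of -0.76, but -0.07 for PAX7 in place of -0.33, so PAX7 no longer met the limit. The difference between the lines has no replicate check.

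**Figure D4:**
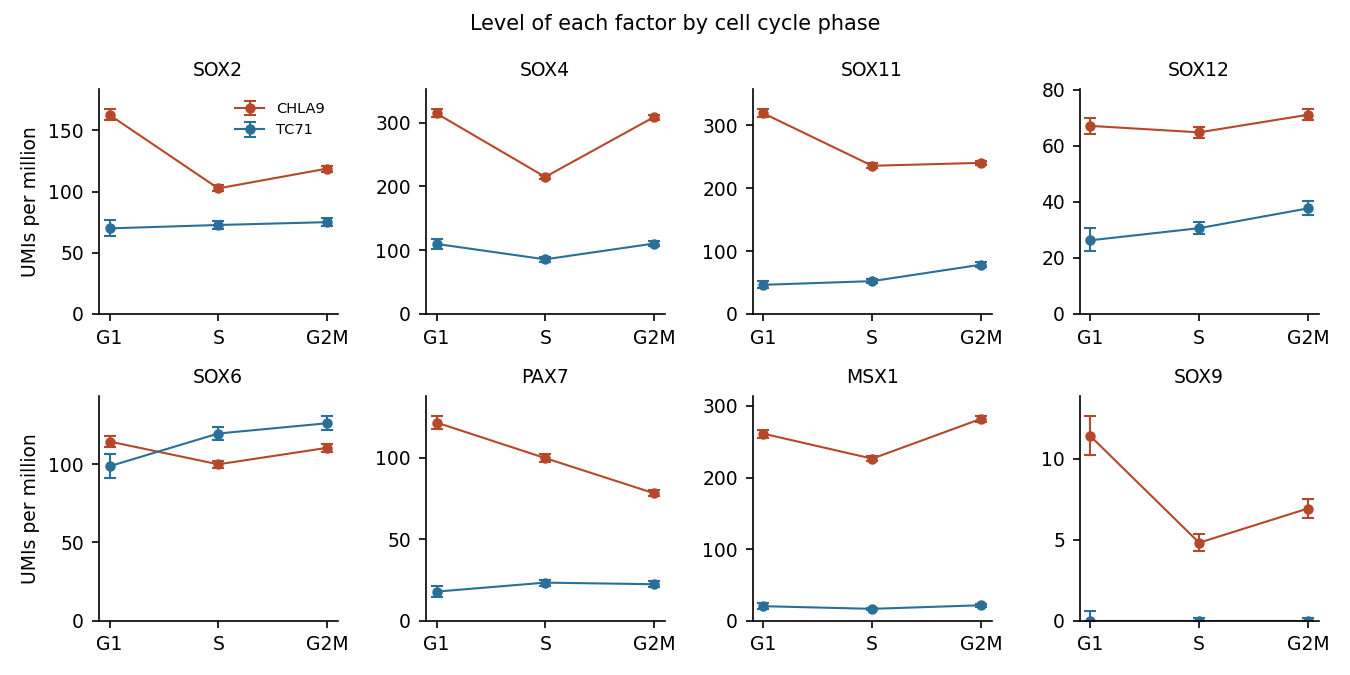
Level of 8 of the factors in cells assigned to G1, S and G2M, in CPM, for CHLA9 and TC71; bars are exact 95% Poisson intervals, each axis starts at 0, and SOX5 and OTX2 are not drawn. SOX11 is highest in G1 in CHLA9 (319) and in G2M in TC71 (78.3), SOX4 is lowest in S in both lines, and SOX9 is at 0 in TC71.

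The counts of a factor over cells were more uneven than those of genes of like mean for most of them. At 10000 UMIs the ratio of variance to mean was 2.85 for SOX4 in CHLA9, where genes of like mean had a median of 1.11. A single cell held 74 SOX4 UMIs, the next 19, and without that cell the ratio was 2.46. MSX1 reached 2.78 (1.11 for genes of like mean) and SOX2 2.10 (1.07), with up to 23 and 15 UMIs in a cell. SOX11 (1.60), SOX9 (1.51), OTX2 (1.41), PAX7 (1.37) and SOX6 (1.35) stood lower, and SOX12, at 1.05, was at the level of its peers (1.04). In TC71 SOX2 had the highest ratio, 1.44, then SOX11 at 1.30 and SOX4 at 1.28, and SOX12 had 1.01. SOX5 was seen at most once in a thinned cell, which by itself sets the ratio near 1, at 0.998 in CHLA9 and 0.992 in TC71. The tenth of CHLA9 cells richest in SOX2 held 39.9% of its UMIs, a share that was 26.3% for SOX11.

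A CHLA9 cell held UMIs of a median of 5 of the 10 factors at 10000 UMIs (3 to 7 from the 5th to the 95th percentile) and a TC71 cell of 3 (1 to 5). None of the factors was seen in 3 of 4510 CHLA9 cells and in 35 of 1670 TC71 cells. Few cells thus lacked all of them in either line. In CHLA9 the factors were found together about as often as their single shares would give. In TC71, with fewer cells and mostly smaller shares, the ratios spread more widely, and a difference between the lines was not tested. At 10000 UMIs, over 36 pairs in CHLA9 the share of cells with both was 0.893 to 1.07 times the product of the single shares, and over 21 pairs in TC71 it was 0.899 to 1.29 times. At 5000 UMIs the range was 0.9746 to 1.07 over 28 pairs in CHLA9, without SOX9, and 0.775 to 1.63 over 21 pairs in TC71. The highest was PAX7 with MSX1, together in only 1.21% of 1729 TC71 cells, where the product is 0.745%. At 10000 UMIs PAX7 and MSX1 were both present in 43.7% of CHLA9 cells, where the product is 43.2%, and in 3.71% of TC71 cells, where it is 2.87%. Spearman's rho across cells at 10000 UMIs stayed between -0.0192 and 0.0775 in CHLA9 and between -0.0343 and 0.0611 in TC71. At 5000 UMIs it stayed between -0.0181 and 0.0521 in CHLA9 and between -0.0309 and 0.0840 in TC71. No gene reached a positive Pearson correlation of 0.2 with any factor of at least 20 CPM, the highest being BCL11B with SOX11 in CHLA9, at 0.170 over 4510 cells of 1 library. On the negative side HIST1H4C, a histone gene of S phase, had -0.236 with SOX11 in CHLA9. These cells share their library, their phases and any error of depth.

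Cells with SOX9 were compared with the rest of CHLA9 at 10000 UMIs, a comparison added after the values were seen. Before thinning 643 of 4524 CHLA9 cells held a SOX9 UMI, so some of the others carry SOX9 too. MSX1 had 302 CPM in the 271 SOX9-positive cells (282 to 323) and 253 CPM in the 4239 others (249 to 258), and SOX11 had 286 (266 to 306) and 259 (254 to 264). These counting intervals do not overlap, but they leave out the spread across cells. The ratio of variance to mean in CHLA9 was 2.78 for MSX1 and 1.60 for SOX11, so the difference was not tested. OTX2 had 27.7 CPM (21.8 to 34.7) and 30.1 CPM (28.5 to 31.8), and PAX7 107 (94.7 to 120) and 97.6 (94.7 to 100.6), intervals that overlap, as did those of SOX2, SOX4, SOX6 and SOX12. Of the SOX9-positive cells 34.3% were in G1 and 28.8% in S, against 21.6% and 39.2% of the others. The phases thus move with SOX9, and their part in the MSX1 and SOX11 values was not tested.

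The cells of each line were next divided by a mesenchymal list of 19 genes, matched by name, that holds none of the factors. VIM is among them, while CD44, also listed, had 3 UMIs in CHLA9 and 0 in TC71. In CHLA9, MSX1 had 237 CPM in the 25% of cells lowest in the score and 279.5 CPM in the 25% highest, and SOX4 had 256 and 291. SOX2 had 117 and 124 CPM and SOX9 6.06 and 8.01 CPM. SOX6, SOX11, PAX7 and OTX2 had overlapping intervals there, and SOX12 was the one factor lower in the high-score cells, at 63.8 against 70.1 CPM. When cells were ranked by the fraction of their UMIs from these genes instead, the intervals of MSX1 and SOX4 were still apart, those of SOX2, SOX9 and SOX12 overlapped, and SOX11 became higher in the high-score cells, at 262 against 246 CPM with intervals apart. The high-score cells were 31.2% G1 cells and the low-score cells 14.3%, so the split was also made within each phase, a step added after the values were seen. MSX1 then had 236 and 277 CPM in G1, 223 and 237 in S, with overlapping intervals, and 247 and 316 in G2M. SOX4 was higher in the high-score cells in each of the 3 phases. For SOX9 the intervals overlapped in each phase, and SOX11 had 339 and 311 CPM in G1, lower in the high-score cells, with overlap in S and G2M.

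In TC71 the factor that differed most by the same score was SOX11, in the other direction. It had 73.5 CPM in the low-score cells and 50.9 in the high-score cells, and within phases 59.0 and 44.1 in S and 91.9 and 62.9 in G2M. In G1 its intervals overlapped, at 47.4 and 44.9 CPM. SOX6 had 128 and 114 CPM by the same score, but its intervals overlapped within each phase and when cells were ranked by fraction of UMIs. MSX1 had 18.9 and 19.2 CPM, with overlapping intervals, as had SOX4 (99.4 and 94.7) and PAX7 (24.0 and 20.0). Cells ranked by fraction of UMIs gave SOX4 104 and 89.2 CPM, SOX12 34.2 and 28.3 and PAX7 25.4 and 19.7. Those intervals were apart. With the score taken at 5000 UMIs the log2 ratio of high over low was -0.41 for PAX7, -0.36 for SOX11 and -0.24 for SOX4. Within G2M SOX4 had 117 and 99.8 CPM, intervals apart, the reverse of CHLA9, and in G1 and S its intervals overlapped. The list itself was unlike in the lines. S100A10, a partner of annexin A2, and the annexin ANXA1 had 85.9 and 387 CPM in TC71 against 2.8 and 18.9 CPM in CHLA9, whereas S100A6 and the actin-binding CALD1 had 19.4 and 74.5 CPM in CHLA9 against 0.360 and 1.54 CPM in TC71. A high score thus does not mark the same genes in each line.

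Depth and nuclear RNA also moved with some factors. In CHLA9, SOX9 had 10.3 CPM in the 25% of cells with the fewest UMIs and 6.62 in the 25% with the most, and SOX11 had 309 and 234. SOX6 ran the other way in both lines, with 98.95 and 114 CPM in CHLA9 and 108 and 129.8 in TC71. By the share of MALAT1, a split added after the values were seen, SOX6 had 95.1 and 118 CPM in the lowest and highest 25% of CHLA9 cells and 90.7 and 146 in those of TC71. SOX11 had 265 and 230 CPM in CHLA9 and 47.7 and 78.4 in TC71, again opposite in direction. This was not particular to SOX11, since PAX7 and SOX4 were also opposite, with intervals apart in each line. Their log2 ratios of highest over lowest were -0.371 and -0.072 in CHLA9 and 0.408 and 0.275 in TC71. SOX12 rose in TC71, at 25.9 and 40.3 CPM, and its CHLA9 intervals overlapped. SOX2 had 145 and 107 CPM in CHLA9 and 71.3 and 73.8 in TC71, the latter with overlapping intervals. SOX5 held 4 and 26 UMIs in these cells of CHLA9 and 2 and 26 in those of TC71. By mitochondrial percent the factors other than SOX5, whose intervals overlapped, differed by a log2 ratio of at most 0.14 in CHLA9 and 0.27 in TC71 (PAX7 in both).

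The other genes of the pathways were read from lists, beside the 19.8% and 13.9% of all genes at least 2-fold higher in CHLA9 and in TC71. Of 32 factors of the neural plate border and neural crest 23 had at least 1 CPM in a line, of which 11 were 2-fold higher in CHLA9, 4 in TC71 and 8 within 2-fold, with a median log2 ratio of 0.28. Without PAX7, MSX1 and SOX9 the numbers were 8 and 4 of 20. The listed genes did not all differ in one direction. DLX3 and TFAP2B, factors of the border and the crest, had 36.2 and 8.59 CPM in CHLA9 against 1.71 and 1.11 CPM in TC71. DLX5 and DLX6, neighbouring homeobox genes of the pharyngeal arches, had 0.251 and 0.0229 CPM in CHLA9 against 34.7 and 11.6 CPM in TC71.

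Of 34 neural and neuroectodermal factors 17 had at least 1 CPM in a line, with 6 higher in CHLA9, OTX2 among them, 4 in TC71, 7 within 2-fold and a median of 0.46. HAND2, a factor of sympathetic neurons and heart, had 87.0 CPM in CHLA9 against 9.97 CPM in TC71. EN1, a midbrain factor, had 5.13 CPM in CHLA9 and 2 UMIs in TC71. SIX3, which acts beside OTX2 in the forebrain, was instead higher in TC71, with 14.0 CPM against 2.62 CPM, and so was NKX2-2, an Ewing sarcoma marker, with 34.6 against 9.89 CPM. Of 11 pluripotency factors only SOX2 and LIN28B had at least 1 CPM, LIN28B with 14.1 CPM in CHLA9 against 54.2 CPM in TC71, while POU5F1 and NANOG, which act with SOX2 in embryonic stem cells, had 0.0914 and 0.154 CPM in CHLA9 against 0.103 and 0.240 CPM in TC71.

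Of 9 genes of the BMP response, the signal upstream of MSX1, 5 were 2-fold higher in CHLA9, MSX1 itself among them, 0 in TC71 and 4 within 2-fold, with a median of 1.26. ID3 and ID4, direct targets of BMP signals, had 905 and 219.5 CPM in CHLA9 against 377 and 50.3 CPM in TC71, but ID1 and ID2, of the same family, had 162 and 108 CPM against 152 and 132 CPM, and the MSX1 paralogue MSX2 had 20.0 and 6.41 CPM. BAMBI, a decoy receptor, had 37.1 and 13.9 CPM. Of 9 partners of SOX factors and co-repressors of the Groucho family 5 were higher in CHLA9, 1 in TC71 and 3 within 2-fold, with a median of 1.22. TLE1 and TLE2, Groucho co-repressors, had 8.16 and 27.9 CPM in CHLA9 against 1.54 and 2.50 CPM in TC71. TCF7L1, a repressor of Wnt targets in progenitors, had 41.5 and 7.39 CPM, and LEF1, its activating relative, 2.37 and 11.4 CPM.

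Cartilage genes under SOX5, SOX6 and SOX9 were mostly low. Of 11 genes 5 had at least 1 CPM in a line, 3 higher in CHLA9, 1 in TC71 and 1 within 2-fold, with a median of 2.30. COL9A2 and COL9A3, collagens of cartilage, had 27.9 and 35.5 CPM in CHLA9 against 0.514 and 3.84 CPM in TC71. COL2A1, the main cartilage collagen, went the other way, with 0.366 CPM in CHLA9 against 2.79 CPM in TC71, and ACAN, the main cartilage proteoglycan, had 3 UMIs in CHLA9 and 0 in TC71. Of 9 genes of Schwann cells and melanocytes, derivatives of the neural crest, 4 were at this level, 2 higher in each line, with a median of -0.17. S100B, a Schwann cell and astrocyte protein, was measured at 9.98 CPM in CHLA9 against 0.274 CPM in TC71, whereas ERBB3, the neuregulin receptor of Schwann cells, had 0.749 and 3.14 CPM and MITF, the melanocyte factor, 1.11 and 4.54 CPM. PMEL, another melanocyte gene of the list, was higher in CHLA9, at 1.83 against 0.566 CPM. Of 7 transcripts listed as beside or overlapping SOX genes and the other factors, 5 were found by name. Of these 2 had at least 1 CPM, both higher in CHLA9, OTX2-AS1 and AC016831.1. The latter, with 5.29 and 1.71 CPM, overlapped none of the 10 factors, and its distance to them was not measured. Of the 17 tested genes of the mesenchymal list 7 were higher in CHLA9 and 4 in TC71, with a median of 0.14.

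**Figure D5:**
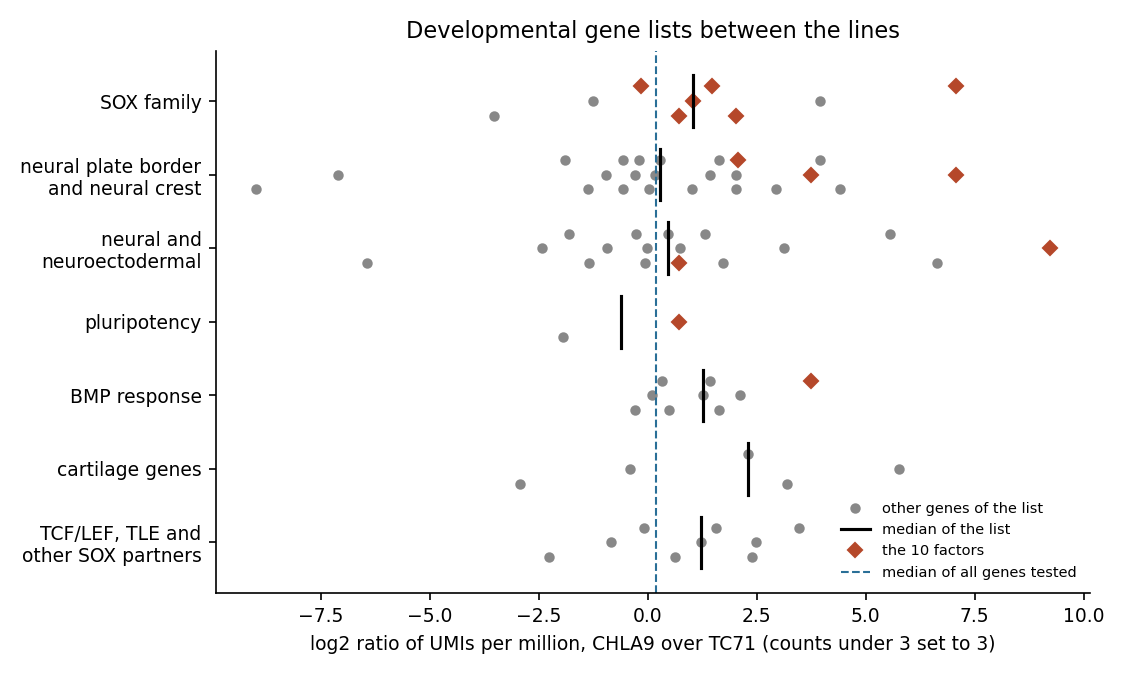
log2 ratio of CHLA9 over TC71 for the genes of 7 lists with at least 1 CPM in a line, with fewer than 3 UMIs set to 3; diamonds are the factors followed here, grey points the other genes, black bars the list medians and the dashed line the median of all 13552 genes (0.20). A gene may stand in more than 1 list. The neural plate border and neural crest list spreads to both sides, while the BMP response list has 5 genes past 2-fold in CHLA9 and 0 in TC71.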

How the data were processed

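The authors counted UMIs with Cell Ranger 3.1.0 on hg38 from 10x 3′ libraries and deposited raw counts per gene and barcode, without normalization. Barcodes were filtered as stated above, and no doublet caller was run. UMIs were summed over cells, scaled to CPM and given exact Poisson intervals, and ratios have exact conditional binomial intervals. Cells were thinned to 10000 UMIs with seed 1 for shares, spread, pairs and list scores, which left out 14 shallower CHLA9 and 59 shallower TC71 cells. Phases came from Seurat 5.3.0 in R 4.3.3, on genes detected in at least 10 cells. Other steps used numpy 2.4.6, scipy 1.17.1 and pandas 2.3.3. Genes were placed with GENCODE 44 on GRCh38, by identifier. Ratios and thinning were tested on simulated data. Strand use in counting was not given in the sources used here.

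The factors, the lists and the way of choosing named genes were fixed with earlier results of these data known. All 10 factors are named, with up to 4 further genes of each list that had at least 5 CPM in a line, by the size of their ratio. SOX8, SOX10, OTX2-AS1, POU5F1, NANOG, ACAN, COL2A1, ERBB3, MITF, PMEL, ID1, ID2, BCL11B and HIST1H4C fall outside this and were named after their values were seen.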

Additional observations from a re-analysis of the deposited data

Results flagged for a closer look

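SOX11 had its highest level in opposite phases in the lines. For CHLA9 the log2 ratio of G1 over G2M was 0.41, and for TC71 it was -0.76, with Poisson intervals of G1 and G2M that did not overlap in either line. With 1 library of each, the difference was not tested.

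Barcodes under 5000 UMIs, which entered no comparison, held most factors too. The 5869 such barcodes of TC71 had 39.2 CPM of SOX2, 71.2 CPM of SOX4, 0.451 CPM of SOX5, 87.0 CPM of SOX6 and 44.8 CPM of SOX11. They had 33.3 CPM of SOX12, 17.1 CPM of PAX7 and 15.7 CPM of MSX1. SOX12 was at the level of the kept cells (33.1 CPM), and SOX2 was the farthest below it (73.4 CPM) among factors with at least 10 CPM. SOX9 and OTX2 had 0 UMIs in them.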

How the results depend on the processing

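The number of factors at least 4-fold apart was 5 and became 3 in G2M cells alone and 3 with ratios centred on genes of at least 10 CPM in both lines, and it stayed within 1.5 times under the other 10 alternatives. The number at least 2-fold apart kept within 1.5 times of 7 under all 12 alternatives, and the number detected in one line only within 1.5 times of 2 under all 11. Of the 120 alternative log2 ratios of single factors 29 left the counting interval, most widely by phase. SOX2 ranged from 0.50 in S to 1.22 in G1 cells and SOX11 from 1.62 in G2M to 2.78 in G1. SOX6 ranged from -0.32 with the centred ratios to 0.21 in G1 cells. The last is the one change of sign. In G1 cells the log2 ratio of SOX9, set against the floor of 3 UMIs, fell from 7.08 to 4.60, since TC71 had only 226 such cells. That of OTX2, also set against the floor there, fell from 9.22 to 6.07. With CPM from cells thinned to 10000 UMIs the 2 values were 5.39 and 7.38. No paired analysis was possible because there is only 1 library per line. Depth limits SOX5, SOX9 and OTX2 the most.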
